A study of Drosophila melanogaster with 6 samples.

Results

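The septate junction genes of the glial barrier were followed in brains of males whose blood-brain barrier (BBB) had been feminized. The set was chosen by name and holds 10 genes, *Nrx-IV*, *Nrg*, *Cont*, *cora*, *vari*, *sinu*, *kune*, *pck*, *Mcr* and *Gli*, of 13453 annotated genes in the table. They are represented by 33 of its 28071 transcripts. Poly-A selected RNA from whole brains, dissected together with their BBB, was sequenced in 3 genotypes of *Drosophila melanogaster* with 2 libraries each. All flies were males in a *w1118* background, 4 to 5 days old, and the driver and transgene stocks had been outcrossed to the same *Cantonized w1118* stock. In the feminized males (*SPG-GAL4/UAS-traF*), the *moody* driver *SPG-GAL4* expressed the female form of the splicing regulator Transformer in the subperineurial glia (SPG). One control genotype carried the driver without the transgene (*SPG-GAL4/+*) and the other carried the transgene without the driver (*UAS-traF/+*). The SPG are a small part of the whole brain, and each library pooled many brains, so the values below are averages over all the cells of these brains.

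The fly BBB is a thin layer of glia that separates the nervous system from the potassium-rich hemolymph. Its seal lies in the SPG, large flat cells joined by pleated septate junctions, ladder-like belts that take the place of vertebrate tight junctions. The membrane core of the junction is built by the adhesion proteins Neurexin IV, Contactin and Neuroglian. The protein 4.1 homolog Coracle and the scaffold Varicose bind the junction from inside the cell. The claudin-like proteins Sinuous, Kune-kune and Pickel (also called Megatrachea) span the membrane, and Macroglobulin complement-related is needed for the belt to form. Gliotactin sits where 3 cells meet. The same proteins seal epithelia and the sheaths of peripheral nerves, and Neuroglian and Neurexin IV are also made by neurons. The SPG markers *moody* and *Mdr65* were present in all libraries, with levels per length of 60.2 to 70.8 and 86.1 to 102 (counts per kilobase, scaled to the same total in each library).

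Positions are those of the Ensembl release 115 annotation of BDGP6.54. *Nrx-IV* lies on chromosome 3L (12146519 to 12156990, plus strand), *Nrg* on X (8517373 to 8555170, plus strand) and *Cont* on 3R (4381306 to 4387018, plus strand). *cora* lies on 2R (19229063 to 19243751, plus strand) and *vari* on 2L (20788662 to 20797042, minus strand). The claudin-like genes *sinu* (3L, 5559470 to 5561598, minus strand), *kune* (2R, 5671741 to 5672800, plus strand) and *pck* (X, 1470666 to 1472325, plus strand) are short. *Mcr* (2L, 8074117 to 8082982, minus strand) and *Gli* (2L, 15756002 to 15762758, minus strand) complete the set. The annotation gives *Nrg* 9 transcripts, *cora* 6, *vari* and *Gli* 5 each, *pck* 3, *Nrx-IV* 2, and 1 each to *Cont*, *sinu*, *kune* and *Mcr*. Of these 34 transcripts, the *Gli* transcript *Gli-RC* was not analysed here.

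The totals of estimated counts ranged from 32839081 to 37608924 per library. The 10 genes took 0.110% to 0.117% of them, 37385 to 43372 counts. Every gene was measured in every library. The first replicate of *SPG-GAL4/+* stood apart in its trend with transcript length. Its log2 counts gained 0.14 per doubling of transcript length relative to the mean library. The gain was 0.039 and 0.027 in the feminized libraries, -0.06 in the second *SPG-GAL4/+* library and -0.055 and -0.094 in *UAS-traF/+*. Apart from the first *SPG-GAL4/+* library, the feminized libraries thus leaned more toward long transcripts than the controls. The part of this trend in the differences of single genes below was not tested. Of the summed levels of marker lists, those of the SPG (11186 to 13299 normalized counts), of neurons (189100 to 267950) and of the fat body (441 to 680) overlapped between feminized and control libraries. The SPG list holds *moody*, *Mdr65*, *loco* and *Gli*, and *Gli* is itself a gene of the set. All 4 listed retina genes had log2 fold changes below 0 in feminized males against the 4 controls (summed 2769 and 3715 against 2952 to 5487 in the controls) and all 3 genes of astrocyte-like glia above 0 (143240 and 136930 against 107080 to 142880), with overlapping groups. The retina median was -0.195 against *SPG-GAL4/+* alone, where 1 of the 4 was higher, and -0.68 against *UAS-traF/+*. For astrocyte-like glia the medians were 0.341 and 0.086. The controls also differed, since all genes of both lists were lower in *SPG-GAL4/+* than in *UAS-traF/+* (medians -0.41 and -0.241). The part of these cells in the results below was not tested. Normalized counts here are counts divided by the library size after TMM scaling and brought to the mean library. In bulk RNA, fewer cells of a type and less RNA per cell cannot be told apart.

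The 10 genes spanned a wide range of levels. Levels were compared between genes per length, on the scale given for *moody*. *cora* was highest at 190 (174 to 209 over the 6 libraries), and it stood above 93.2% of expressed genes. *Nrg* (94.3, range 79.7 to 104), *Nrx-IV* (72.5, range 64.2 to 86.7) and *vari* (61.8, range 57.1 to 69.7) followed, with *Nrg* overlapping *Nrx-IV* and *Nrx-IV* overlapping *vari*. The first of the claudin-like genes was *kune* at 40.0 (37.2 to 43.4), which overlapped neither neighbor. *Cont* was at 24.2 (22.4 to 28.4), *sinu* at 19.99 (18.5 to 21.7), *Mcr* at 19.6 (17.9 to 22.8) and *pck* at 17.5 (15.8 to 19.7). The ranges of *sinu*, *Mcr* and *pck* overlapped. Within each of the 6 libraries *sinu* lay above *pck*, but not in every library with lengths less 200 bases. *Mcr* changed places with both between libraries, so the order of these genes is not resolved. *Gli*, whose product is confined to the corners between cells, was lowest at 5.84 (5.55 to 6.25) and overlapped no other gene. The first *SPG-GAL4/+* library, the one with the trend toward long transcripts, had the highest level per length of every gene except *Gli*.

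**Figure D1:**
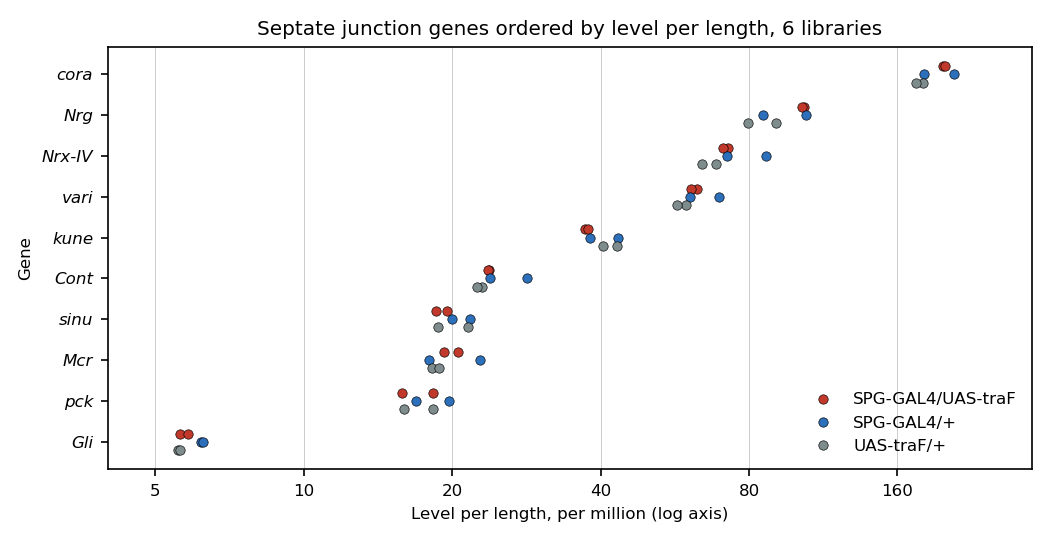
Level per length (counts per kilobase, scaled per library, log axis) of the 10 septate junction genes, ordered from highest to lowest, with a point for each of the 6 libraries colored by genotype. *cora* lies at 174 to 209 and *Gli* at 5.55 to 6.25, and the libraries of a gene lie close together beside the distance between these genes.

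The first question was whether the total RNA of these genes differs in whole brains of males with feminized BBB. All transcripts of a gene were added up, and the 2 feminized libraries were compared with the 4 controls in the quasi-likelihood framework of edgeR, with Benjamini-Hochberg adjusted p-values over 9777 genes. None of the 10 genes was called at an adjusted p below 0.1, where 0% of all genes tested were called. The adjusted p of each of the 10 genes was 0.999. None of the 10 had an unadjusted p below 0.05 (background 4.68%), and DESeq2 also called none (background 0.254%). It gave *cora* alone an unadjusted p below 0.05, but the share of all genes below that threshold in DESeq2 was not taken. The log2 fold changes ran from -0.14 (*kune*) to 0.17 (*Nrg*), with 4 genes higher and 6 lower. Their median was -0.03, against -0.01 for all genes tested. All 10 lay within 0.2 of 0, as did 81% of all genes tested.

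The adhesion proteins of the core came first. *Nrx-IV* had 5937 and 5848 normalized counts in the feminized males, 6465 and 5977 in *SPG-GAL4/+* and 5868 and 5633 in *UAS-traF/+*. The feminized libraries lay among the controls, with a fold change of 0.984 (95% interval 0.846 to 1.14). *Cont* had 1870 and 1868 in the feminized males against 2031 and 1893 in *SPG-GAL4/+* and 1883 and 1890 in *UAS-traF/+*. Both feminized values were the lowest of the 6, but the gap to the nearest control was small and the fold change was 0.972 (95% interval 0.864 to 1.09). *Nrg* had 10181 and 10135 in the feminized males, 9725 and 8518 in *SPG-GAL4/+* and 9404 and 8578 in *UAS-traF/+*. Both feminized libraries lay above all controls, whose own values differed by more between replicates than the feminized libraries differed from the nearest control. The fold change was 1.12 (95% interval 0.951 to 1.32).

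The proteins that bind the junction from inside were *cora* and *vari*. *cora* had 16627 and 17190 normalized counts in the feminized males, 15474 and 15373 in *SPG-GAL4/+* and 15697 and 15637 in *UAS-traF/+*. The controls lay close together and both feminized libraries lay above them, with a fold change of 1.09 (95% interval 0.951 to 1.25). *vari* was the steadiest of the set, with 2781 and 2702 in the feminized males, 2766 and 2689 in *SPG-GAL4/+* and 2720 and 2679 in *UAS-traF/+*. Its genotypes overlapped and its fold change was 1.01 (95% interval 0.911 to 1.12).

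The claudin-like genes all had fold changes slightly below 1. *kune* had 654 and 668 normalized counts in the feminized males, 695 and 677 in *SPG-GAL4/+* and 792 and 760 in *UAS-traF/+*. Both feminized values were below all controls, and the *UAS-traF/+* libraries stood above the other 4. Its fold change against the 4 controls was 0.905 (95% interval 0.791 to 1.04). *sinu* had 668 and 638 in the feminized males, 676 and 690 in *SPG-GAL4/+* and 770 and 687 in *UAS-traF/+*. The feminized values were the lowest, close to the *SPG-GAL4/+* values, and the fold change was 0.927 (95% interval 0.817 to 1.05). *pck* had 339 and 394 in the feminized males, 385 and 366 in *SPG-GAL4/+* and 407 and 367 in *UAS-traF/+*. Its feminized replicates spanned most of the range of the 6 libraries, and the fold change was 0.962 (95% interval 0.814 to 1.14).

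*Mcr*, a member of the thioester protein family, had 2143 and 2024 normalized counts in the feminized males, 2165 and 1888 in *SPG-GAL4/+* and 1979 and 2101 in *UAS-traF/+*. *Gli* had 379 and 398 in the feminized males, 381 and 423 in *SPG-GAL4/+* and 394 and 409 in *UAS-traF/+*. Genotypes overlapped for both genes, with fold changes of 1.02 (95% interval 0.894 to 1.18) for *Mcr* and 0.968 (95% interval 0.852 to 1.10) for *Gli*. Across the set, the 2 feminized libraries lay above all 4 controls for *Nrg* and *cora* and below them for *Cont*, *sinu* and *kune*. That is 2 of 10 above and 3 of 10 below, where 5.9% of all genes tested lay above the controls, 8.11% below and 14% on either side. None of these genes passed the test. The coefficient of variation over the 6 libraries was 1.54% for *vari* to 7.86% for *kune*, with a median of 4.92% for the set against 9.64% for all genes tested.

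**Figure D2:**
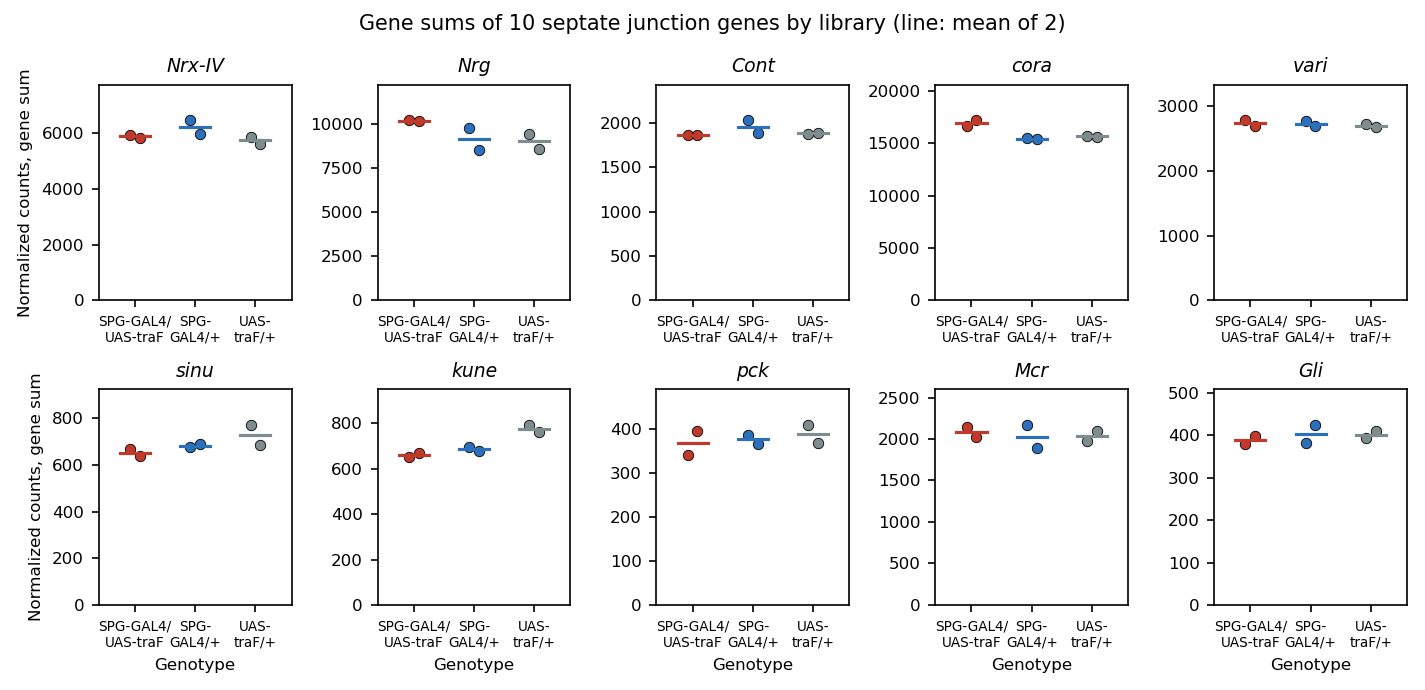
Normalized counts summed over the transcripts of each of the 10 septate junction genes, with a point per library and a line at the mean of the 2 libraries of a genotype, each vertical axis from 0. The 2 feminized libraries lie above all controls for *Nrg* and *cora* and below them for *Cont*, *sinu* and *kune*, by distances that are small beside the level.

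The control genotypes were also taken one at a time, in 1 fit over the 3 genotypes, and these comparisons share the feminized libraries. Against *SPG-GAL4/+*, none of the 10 gene sums was called and none had an unadjusted p below 0.05, with log2 fold changes from -0.09 (*Nrx-IV*) to 0.14 (*Nrg*). The background was 0.0102% called and 5.84% at an unadjusted p below 0.05. Against *UAS-traF/+*, none was called (background 0.102%), and *kune* alone had an unadjusted p below 0.05 (background 7.14%). *kune* was lower by a log2 fold change of -0.22 (SE 0.08, unadjusted p = 0.0365), and its adjusted p was 0.666 (edgeR, Benjamini-Hochberg). Its log2 fold change against *SPG-GAL4/+* was -0.07 (SE 0.08). Between the control genotypes, *SPG-GAL4/+* against *UAS-traF/+*, none of the 10 was called (background 0.215%) and the log2 fold changes ran from -0.15 (*kune*) to 0.14 (*Nrx-IV*). None of the 10 reached an unadjusted p below 0.05 there (background 7.71%). DESeq2 called none of the 10 gene sums in these comparisons (background 0.409%, 0.425% and 0.946%), and none had an unadjusted p below 0.05 in it. Some calls depended on the second *SPG-GAL4/+* library. Without it that genotype is a lone library, which is assumed to vary like the other genotypes. In that fit *Nrx-IV* and *Cont* were called lower in feminized males than in the remaining *SPG-GAL4/+* library, with log2 fold changes of -0.19 and -0.17 (adjusted p = 0.0908 and 0.0765, edgeR), where 20% of all genes were called. In the same setting *Nrx-IV*, *Cont* and *Mcr* were called higher in that library than in *UAS-traF/+*, where 38.4% of all genes were called. The remaining library of that genotype is the one with the trend toward long transcripts.

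**Figure D3:**
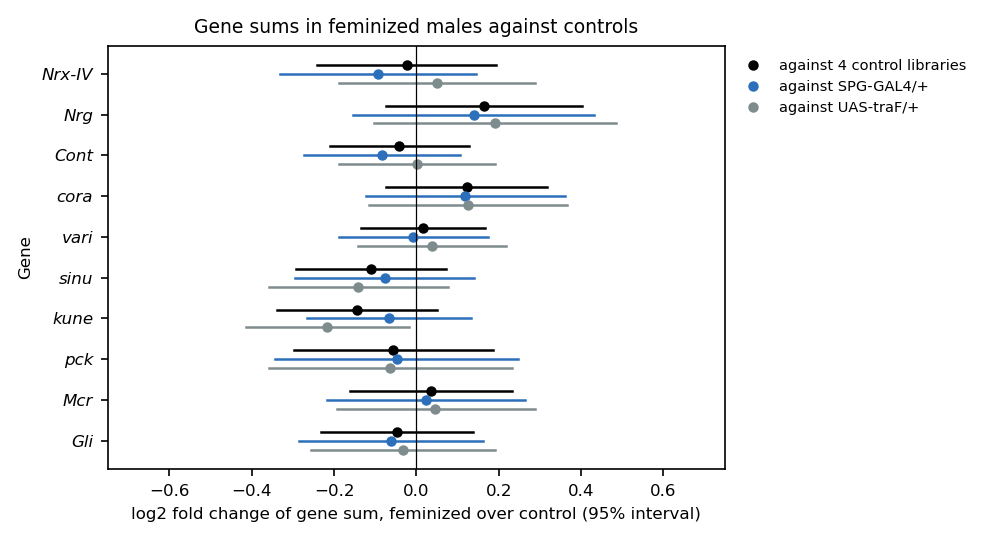
Log2 fold change of the summed counts of each septate junction gene in feminized males over the 4 control libraries (black), over *SPG-GAL4/+* (blue) and over *UAS-traF/+* (gray), with 95% intervals. The intervals include 0 except for *kune* against *UAS-traF/+*, at -0.22.

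The second question was whether the forms of these transcripts differ, since Transformer acts on splicing. Kallisto shares out reads that fit several transcripts of a gene, so a single transcript is less certain than its gene sum, and 11 of the 33 transcripts were at 0 in at least 1 library. A filter on low counts kept 31 of the 33 for the test, all but *Nrg-RI* and *pck-RA*. Of the 31, none was called at an adjusted p below 0.1 by edgeR with Benjamini-Hochberg adjusted p-values over 21208 transcripts, where 0.0141% of all transcripts were called. The smallest adjusted p was 0.764. An unadjusted p below 0.05 was reached by 5 of the 31 (background 5.32%), *Nrx-IV-RB*, *Nrg-RC*, *cora-RB*, *vari-RC* and *vari-RD*. DESeq2 called none (background 1.25%). It gave 8 an unadjusted p below 0.05, but the share of all transcripts below that threshold in DESeq2 was not taken. The 2 feminized libraries lay above all controls for 4 of the 31 (background 6.52%) and below them for 7 (background 8.36%), 14.9% of all transcripts tested lying on either side. The median log2 fold change was 0.005 against -0.02 for all transcripts tested.

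The 2 transcripts of *Nrx-IV* have the same ends and the same coding length of 1284 codons. They differ in 1 exon of 197 bases, which is taken from an upstream position in *Nrx-IV-RB* (12151211 to 12151407) and from a downstream position in *Nrx-IV-RA* (12151820 to 12152016). In the fly embryo, the form with the upstream exon is known from glia with septate junctions and the form with the downstream exon from neurons. The downstream form *Nrx-IV-RA* held most of the counts in every library and differed little between genotypes, with 5528 and 5531 normalized counts in the feminized males and 5218 to 5941 in the controls. The upstream form *Nrx-IV-RB* had 409 and 317 in the feminized males, 523 and 487 in *SPG-GAL4/+* and 478 and 416 in *UAS-traF/+*. Both feminized values were below all controls, the first of them by a small gap. The log2 fold change of *Nrx-IV-RB* was -0.39 (SE 0.16, unadjusted p = 0.0485) and its adjusted p was 0.935 (edgeR, Benjamini-Hochberg). Without the second feminized library, the lower of the 2, the log2 fold change was -0.20. As a share of the gene, the upstream form held 6.90% and 5.42% in the feminized males and 7.38% to 8.15% in the controls, 7.94% ± 0.376 (SD, n = 4), so the shares did not overlap. How often this holds for shares of other genes was not counted.

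The transcripts of *Nrg* end in alternative last coding exons, which give the protein different tails inside the cell. The longer tail of 1302 codons, known as the neuronal form, is encoded by *Nrg-RB*, *Nrg-RE* and *Nrg-RI*, and the shorter form of 1239 codons, known from glia and epithelia, by *Nrg-RA*, *Nrg-RC*, *Nrg-RD*, *Nrg-RF* and *Nrg-RH*. The shorter form summed to 4984 and 5165 normalized counts in the feminized males, 4193 and 4119 in *SPG-GAL4/+* and 4768 and 4121 in *UAS-traF/+*. Both feminized values were above the controls, with a log2 fold change of 0.25 (SE 0.08, unadjusted p = 0.0217) and an adjusted p of 0.813 (edgeR, Benjamini-Hochberg) over sums of transcripts with the same coding exons, a grouping added after the data were seen. Of the 22 such sums in the set none was called (background 0.019%). Both feminized values lay outside the controls for 10 of the 22 (background 15.2%), and 6 of the 22 had an unadjusted p below 0.05 (background 5.69%), this form, *Nrx-IV-RB*, *cora-RB*, *vari-RD*, *vari-RC* with *vari-RF*, and *pck-RD*. The longer form had 5145 and 4923 in the feminized males and 4317 to 5432 in the controls, and here the groups overlapped. The longer form took 48.6% to 50.5% of the counts of the gene in the feminized males and 48.2% to 55.9% in the controls, so the balance of the tails overlapped between genotypes as well.

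Most of the shorter form came from *Nrg-RC*, with 4366 and 4568 normalized counts in the feminized males, 3517 and 3698 in *SPG-GAL4/+* and 3955 and 3233 in *UAS-traF/+*. Its feminized values lay above all controls, with a log2 fold change of 0.31 (SE 0.09, unadjusted p = 0.0163) and an adjusted p of 0.766 (edgeR, Benjamini-Hochberg). Most of the longer form came from *Nrg-RE*, with 4805 and 4597 in the feminized males and 4097 to 5432 in the controls. The rarer *Nrg-RB* encodes the same protein as *Nrg-RE* with a shorter 3′ end and another first exon, which it shares with *Nrg-RA* alone. It was all or nothing by library, with 339 and 283 in feminized males, 0 and 253 in *SPG-GAL4/+* and 0 in both *UAS-traF/+* libraries. *Nrg-RA* ran the other way, with 0 and 40.0 in feminized males, 325 and 6.70 in *SPG-GAL4/+* and 179 and 456 in *UAS-traF/+*. Whether Kallisto moved reads between *Nrg-RA* and *Nrg-RB* was not tested. Measured against 3 counts in a library, the feminized mean of *Nrg-RB* was at least 99.8-fold higher than *UAS-traF/+*. The fit was far less certain, with a 95% interval from 1.58-fold upward and an adjusted p of 0.609 (edgeR, Benjamini-Hochberg). Both feminized values of *Nrg-RB* were also above the *SPG-GAL4/+* library that held it. *Nrg-RI*, of the same coding form, had 0.959 and 42.9 in the feminized males and 0 in the controls. *Nrg-RG*, with a tail of its own and 1309 codons, had 51.8 and 47.8 in the feminized males, 99.2 and 48.8 in *SPG-GAL4/+* and 102 and 140 in *UAS-traF/+*. The feminized values of *Nrg-RG* reached those of 1 *SPG-GAL4/+* library and lay below *UAS-traF/+*, with a log2 fold change of -1.28 against the latter (unadjusted p = 0.0357, adjusted p = 0.586, edgeR). The other *Nrg* transcripts, *Nrg-RA* included, held at most 5.32% of the gene in any library.

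*cora* had 1 major form. *cora-RA*, which holds a long exon of 2997 bases in full (19238789 to 19241785), had 12194 and 13000 normalized counts in the feminized males and 10637 to 11787 in the controls, and its feminized values lay above the controls. Its log2 fold change was 0.15 (SE 0.08, adjusted p = 0.974, edgeR, Benjamini-Hochberg). *cora-RB* uses only the last 570 bases of this exon and encodes 889 codons in place of 1698. It had 1412 and 1489 in the feminized males, 1920 and 1963 in *SPG-GAL4/+* and 1621 and 1710 in *UAS-traF/+*. The replicates of *cora-RB* lay close together in each genotype, with the feminized males lowest, *UAS-traF/+* between and *SPG-GAL4/+* highest. The log2 fold change of *cora-RB* was -0.31 against the 4 controls (SE 0.10, unadjusted p = 0.0226) and its adjusted p was 0.822 (edgeR, Benjamini-Hochberg).

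*cora-RB* held 8.49% and 8.66% of the counts of *cora* in the feminized males and 10.3% to 12.8% in the controls, 11.6% ± 1.17 (SD, n = 4). The forms with the full exon, *cora-RA*, *cora-RF* and *cora-RG*, held 81.6% and 83.5% against 76.8% to 80.3%. Neither pair of shares overlapped, but both are parts of the same total. How often shares of other genes fail to overlap was not counted. The gene-level test of transcript usage gave *cora* an unadjusted p of 0.446 (edgeR). The forms that skip the exon, *cora-RC* and *cora-RE*, held 9.92% and 7.80% in the feminized males and 7.07% to 10.8% in the controls, an overlap. Against *SPG-GAL4/+* alone, *cora-RB* had a log2 fold change of -0.42 (unadjusted p = 0.00317, adjusted p = 0.709, edgeR, Benjamini-Hochberg), while DESeq2 gave -0.41 and called it (adjusted p = 0.0117, background 1.31%). The control genotypes differed from each other in the same transcript by a log2 fold change of 0.22, higher in *SPG-GAL4/+* (unadjusted p = 0.0386, adjusted p = 0.646, edgeR).

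*vari* transcripts start at an upstream site (*vari-RB*, *vari-RD*, *vari-RE*) or at a downstream site (*vari-RC*, *vari-RF*), and those of the downstream site encode a shorter protein of 469 codons. The upstream form *vari-RD* had 1680 and 1529 normalized counts in the feminized males, 1402 and 1389 in *SPG-GAL4/+* and 1397 and 1290 in *UAS-traF/+*. The feminized values lay above the controls, with a log2 fold change of 0.23 (SE 0.08, unadjusted p = 0.0258) and an adjusted p of 0.865 (edgeR). The other common upstream form, *vari-RB*, had 1036 and 1017 in the feminized males against 1066 to 1227 in the controls, below all controls, with a log2 fold change of -0.13 (SE 0.09). *vari-RB* and *vari-RD* thus lay on opposite sides of the controls while the sums of the gene overlapped between feminized males and controls.

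The downstream form *vari-RC* had 65.2 and 86.7 normalized counts in the feminized males, 261 and 141 in *SPG-GAL4/+* and 159 and 134 in *UAS-traF/+*. All controls lay above the feminized values, and 1 *SPG-GAL4/+* library, the one with the trend toward long transcripts, lay far above the rest. The log2 fold change of *vari-RC* was -1.19 (SE 0.36, unadjusted p = 0.0157, adjusted p = 0.764, edgeR, Benjamini-Hochberg) and -0.91 without that library. Of the 5 transcripts, *Nrx-IV-RB* alone had an unadjusted p above 0.05 without it (log2 fold change -0.33, unadjusted p = 0.0927). With *vari-RF* added, the downstream start held 2.34% and 4.73% of the counts of *vari* in the feminized males and 5.59% to 10.1% in the controls, 7.77% ± 2.12 (SD, n = 4). The 3′ part of *vari* overlaps *Pomp* on the opposite strand, by 437 bases in *vari-RC*, *vari-RD* and *vari-RF* and by 267 bases in *vari-RB* and *vari-RE*. The library kit does not mark strand, so reads from there cannot be told apart, and *Pomp* had 1315 to 1881 normalized counts with a log2 fold change of -0.07 (SE 0.12). *Mcr* overlaps an antisense RNA, asRNA:CR45257, by 124 bases.

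**Figure D4:**
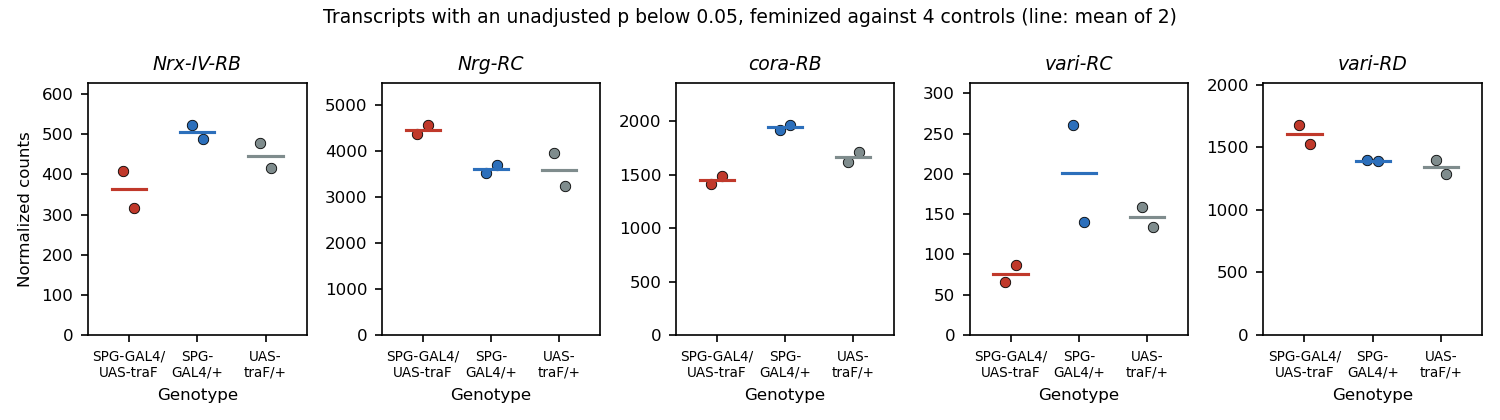
Normalized counts of the 5 septate junction transcripts with an unadjusted p below 0.05 in feminized males against the 4 controls, with a point per library and a line at the mean of 2, each vertical axis from 0. *Nrg-RC* and *vari-RD* lie above all controls in both feminized libraries, and *Nrx-IV-RB*, *cora-RB* and *vari-RC* lie below.

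The forms of *pck* and *Gli* were less well resolved. *pck-RC* held 93.2% to 100% of the counts of *pck* in every library. *pck-RD*, which encodes a shorter protein of 136 codons, was at 0 in both feminized libraries, with 6.54 and 10.5 normalized counts in *SPG-GAL4/+* and 0 and 24.8 in *UAS-traF/+*. It was at least 3.58-fold lower than the mean of the controls, measured against 3 counts in a library, but 1 control library was also at 0. The 95% interval of the fit reached up to 1.115-fold, with an adjusted p of 0.942 (edgeR, Benjamini-Hochberg). The *Gli* transcripts analysed here share 1 coding sequence of 956 codons and differ outside it. *Gli-RA* had 292 and 295 in the feminized males, 252 and 211 in *SPG-GAL4/+* and 339 and 330 in *UAS-traF/+*. The feminized males lay between the control genotypes, which differed from each other by a log2 fold change of -0.53 (unadjusted p = 0.0209, adjusted p = 0.579, edgeR), lower in *SPG-GAL4/+*. *Gli-RD* ran the other way between the controls, with 94.9 and 203 in *SPG-GAL4/+*, 0 and 44.7 in *UAS-traF/+*, and 67.1 and 61.4 in the feminized males. The sum of the gene did not show this difference.

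**Figure D5:**
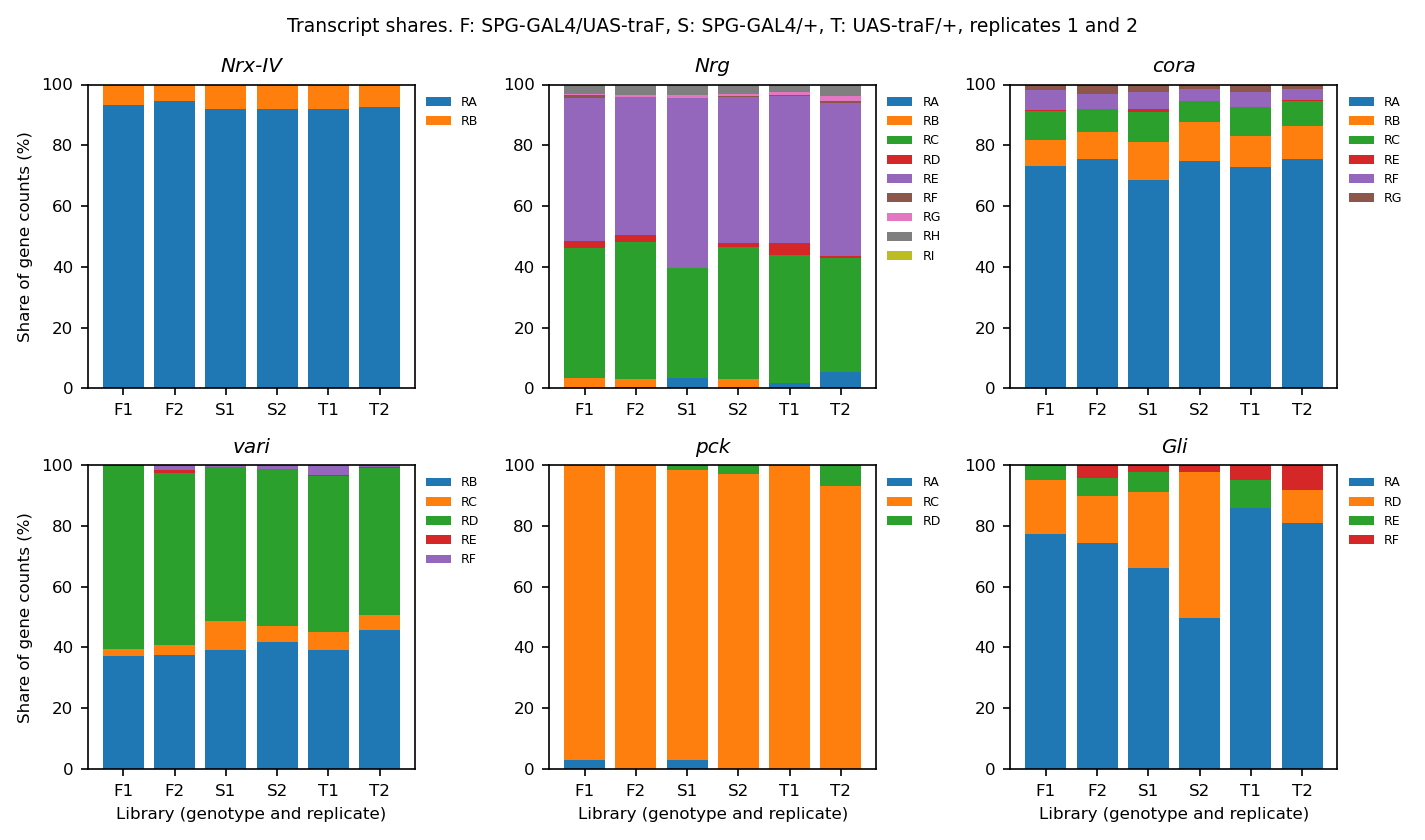
Share of the normalized counts of a gene held by each of its transcripts (%, stacked to 100) in the 6 libraries, for the 6 septate junction genes with more than 1 transcript. *Nrx-IV-RA*, *cora-RA* and *pck-RC* dominate in every library, *Nrg* is split between *Nrg-RC* and *Nrg-RE*, and the shares of *Gli* vary between libraries of the same genotype.

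The share of transcripts within a gene was tested for the 6 genes with more than 1 transcript by the gene-level test of diffSpliceDGE in edgeR. None was called, against a background of 1.31% over 5109 genes. *pck* alone had an unadjusted p below 0.05 (background 9.24%), and its adjusted p was 0.325 (edgeR, Benjamini-Hochberg). *Nrx-IV* followed with an adjusted p of 0.584 (edgeR). Of *Nrg*, *cora*, *vari* and *Gli*, none had an adjusted p below 1. Without the second *SPG-GAL4/+* library, the only control with counts of *Nrg-RB*, *Nrg* was called (adjusted p = 0.0223, edgeR, background 2.82%). Without the first *UAS-traF/+* library, the only control with *pck-RD* at 0, *pck* was called (adjusted p = 0.0585, edgeR, background 1.59%).

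Against the single control genotypes, none of the 31 transcripts was called by edgeR, and apart from *cora-RB* against *SPG-GAL4/+* none was called by DESeq2 (background 3.11% against *UAS-traF/+* and 2.49% between the controls). Against *SPG-GAL4/+*, 4 of 31 had an unadjusted p below 0.05 (background 5.6%), *Nrx-IV-RB*, *Nrg-RC*, *cora-RB* and *vari-RC*. Against *UAS-traF/+*, 4 of 31 did so (background 7.88%), *Nrg-RB*, *Nrg-RC*, *Nrg-RG* and *vari-RD*. *Nrg-RC* was the 1 transcript with an unadjusted p below 0.05 against either control, with log2 fold changes of 0.31 in both comparisons, which share the feminized libraries. Against *UAS-traF/+* it was 0.49 without the first and 0.19 without the second library of that genotype, the latter with an unadjusted p of 0.199. Against *SPG-GAL4/+*, *Nrx-IV-RB* went from -0.48 to -0.29 without the second feminized library, and *vari-RC* from -1.40 to -0.88 without the first *SPG-GAL4/+* library (unadjusted p = 0.211 and 0.0541). Between the control genotypes, 2 of 31 had an unadjusted p below 0.05 (background 7.39%), *cora-RB* and *Gli-RA*. The shares of all transcripts called in these comparisons were 0%, 0.0613% and 0.0377%.

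Other genes of pleated septate junctions were given by their sums. Of 22 listed names 21 were found, since *aka* is another name of *bark*. In feminized males against the 4 controls, 9 were higher and 12 lower, none was called and none had an unadjusted p below 0.05 (background 4.68%). Their log2 fold changes ran from -0.22 (*bark*, a scavenger receptor-like protein of tricellular junctions) to 0.25 (*bou*, a Ly6 protein), with a median of -0.01. Those with the highest level per length were the sodium pump subunits *Atpalpha*, at 3246 to 5123, and *nrv2*, at 1962 to 2358, both of them also at work outside the junction in neurons and glia. *Atpalpha* had 362060 and 362250 normalized counts in the feminized males and 281420 to 388500 in the controls, an overlap. Against *SPG-GAL4/+*, *nrv2* and the lipid phosphatase *wun* had log2 fold changes above 0 with unadjusted p of 0.0494 and 0.0428 (2 of 21, background 5.84%), and neither was called. Between the controls, 3 of 21 had an unadjusted p below 0.05 (background 7.71%), the Ly6 gene *crok*, *pasi1* and the polarity gene *l(2)gl*, all lower in *SPG-GAL4/+*. Of 4 genes of smooth septate junctions, the kind found in the gut, 3 were tested. All 3 had a log2 fold change below 0 against the 4 controls, but 2 of the 3 were higher than in *SPG-GAL4/+* alone. Against the 4 controls 1 of the 3 had an unadjusted p below 0.05 (background 4.68%). *Tsp2A*, a tetraspanin of these junctions, had 14.4 and 12.7 normalized counts in the feminized males and 22.9 to 27.3 in the controls, with a log2 fold change of -0.85, an unadjusted p of 0.0117 and an adjusted p of 0.847 (edgeR, Benjamini-Hochberg).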

How the data were processed

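The authors quantified paired-end reads of libraries from the TruSeq RNA v1 kit with Kallisto and deposited estimated counts for each transcript, rounded to whole numbers and not normalized. The Kallisto version, the transcriptome release and the genome build are not given in the sources used here. All 6 columns were used. The members and gene lists were chosen with earlier results of these data known.

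Transcripts were compared in R 4.3.3 by the quasi-likelihood test of edgeR 4.0.16 (TMM, filterByExpr, Benjamini-Hochberg, adjusted p below 0.1, prior count 0.125), 2 feminized libraries against 4 controls. Separate contrasts came from 1 fit over 3 genotypes. Gene sums and transcript usage (diffSpliceDGE) were fitted over all genes, and 10 transcripts without annotation were left out of gene sums. Transcripts were named that held at least 10% of their gene in the mean of a genotype or had an unadjusted p below 0.05 in a comparison. *Nrg-RA*, *Nrg-RI*, *pck-RD* and members of summed forms fall outside this rule and were chosen after their values were seen. Fits were tested on simulated data. The alternatives were DESeq2 1.42.0, limma-voom (limma 3.58.1), median-of-ratios size factors, other filters, an adjusted p of 0.05, the replicate number as a block, removal of the length trend and leaving out each library, and sums by coding form were added after the data were seen. Each library pooled many brains and counted as 1 biological replicate. Intervals are 95% intervals of the fits, and the error of Kallisto's sharing of reads was not used.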

Additional observations from a re-analysis of the deposited data

How the results depend on the processing

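With 2 libraries per genotype the 95% intervals of the gene sums reached from 0.791-fold to 1.32-fold against the 4 controls and from 0.750-fold to 1.40-fold against a single control genotype, and differences within an interval were not resolved. The number of septate junction genes or transcripts called stayed at 0 under the alternatives run, except as follows, and the cause was not tested. DESeq2 called 1 transcript against *SPG-GAL4/+*. With libraries left out, the counts ran from 0 to 1 gene for transcript usage, from 0 to 2 gene sums against *SPG-GAL4/+* and from 0 to 3 between the controls. With lengths less 200 bases, 2 genes (*Mcr* and *pck*) exchanged places in the order of levels. The labels tie no libraries of the same replicate number together. The paper reports dissecting all genotypes in equal numbers at each sitting, without saying which sittings make up a replicate. The deviations of same-numbered libraries from the mean of their genotype had correlations of -0.02 to 0.04. With 2 libraries per genotype, both replicate numbers give the same correlations. With the replicate number as a block, 0 gene sums and 0 transcripts were called.

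The sign turned for small or uncertain log2 fold changes against the 4 controls when single libraries were left out, over ranges of -0.059 to 0.041 for *Nrx-IV*, -0.059 to 0.01 for *Cont*, -0.152 to 0.054 for *pck* and -0.008 to 0.092 for *Mcr* sums. The ranges were -0.021 to 0.057 for *Nrx-IV-RA*, -0.018 to 0.137 for *Nrg-RE*, -0.141 to 0.119 for *pck-RC*, -0.063 to 0.169 for *Gli-RA* and -0.817 to 0.466 for *Gli-RD*, and among coding forms -0.11 to 0.106 for *pck-RA* with *pck-RC* and -0.067 to 0.005 for *Gli*. *Gli-RD* was 0.152 in the 3-genotype fit and 1.24 in limma-voom, *pck-RC* 0.006 with the length trend removed, and the *pck* form 0.001 with the replicate block.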
